A study of Mus musculus with 12 samples.

Results

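The genes described here make bile acids in the liver, take them back up from the blood, or hold their synthesis down. They are 10 of the 48440 genes in the deposited tables, matched by gene name: Cyp7a1, Cyp8b1, Cyp27a1, Cyp7b1, Hsd3b7, Akr1d1, Slc27a5, Baat, Slc10a1 and Nr0b2. Poly(A) RNA was sequenced from livers of male C57BL/6 mice aged 8 weeks, kept on normal chow with equal hours of light and dark. WT mice were wild type, and TG mice carried a transgene that overexpresses E4BP4 (gene Nfil3) in the liver; the labels do not name the promoter that drives it or the founder line. Both genotypes were sampled at zeitgeber time (ZT, the hours since the lights came on) 2, early in the light, and 14, early in the dark. Each of the 4 groups (WT and TG at each time) holds 3 libraries, 12 in all. The labels do not say that the samples of a group came from separate animals, so the p-values below measure only the spread between these samples.

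Hepatocytes turn cholesterol into bile acids by a main route that starts with Cyp7a1, the rate-limiting 7 alpha-hydroxylase, and an alternative route that starts with Cyp27a1, the mitochondrial sterol 27-hydroxylase, and goes on through Cyp7b1, the oxysterol 7 alpha-hydroxylase. Hsd3b7 and Akr1d1 then reshape the sterol ring, Cyp8b1 adds the 12 alpha-hydroxyl group that makes cholic acid, and Slc27a5 and Baat join the acids to coenzyme A and then to taurine or glycine. Slc10a1 (NTCP) carries bile acids from portal blood back into hepatocytes, and Nr0b2 (SHP) is a nuclear receptor without a DNA-binding domain that is switched on by the bile acid receptor FXR (Nr1h4) and represses Cyp7a1 and Cyp8b1. Synthesis follows the feeding and light cycle, and E4BP4 is a clock-driven repressor that binds the D-box, the same DNA element that the activators Dbp, Tef and Hlf bind.

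All 10 genes had enough reads to be tested. Between the light-phase and the dark-phase sample Cyp7a1 rose and Hsd3b7 fell in both genotypes, Akr1d1 rose in WT, and Nr0b2 fell in TG. No member passed the test between TG and WT at either time. In 2 TG libraries, 1 at each time, Cyp8b1, Cyp7b1 and Slc10a1 were lower than in every other library of that time. These libraries were set apart on these same data, and the share of all genes lowest in them was not counted.

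Total gene reads per library ranged from 16035121 to 23981021, of which 81.2% to 85.5% were uniquely mapped and 9.79% to 11.9% lay in introns. A principal component analysis of the 2000 genes with the largest variance separated the times on its first axis (30.9% of the variance). On the second axis (15.9%), TG ZT2 replicate 2 lay at 33.2 and TG ZT14 replicate 3 at 34.8, while the other 10 libraries lay between -13.7 and -2.29. These 2 libraries are called the 2 outlying libraries below. Nfil3, the overexpressed gene, lay between 62.6 and 71.1 CPM (counts scaled to the library's normalised total gene reads) in TG and between 29.4 and 48.8 in WT at ZT2, and between 63.8 and 93.9 in TG and 24.6 and 40.4 in WT at ZT14. The groups did not overlap at either time. Its log2 fold change in TG was 0.81 at ZT2 (edgeR adjusted p = 0.359) and 1.34 at ZT14 (adjusted p = 0.0306). The ZT14 call held in 4 of the 12 fits that leave out 1 library, and averaged over both times the change was 1.07 (SE 0.15, edgeR adjusted p = 0.00942). Without the 2 outlying libraries neither was called, at 1.34 (edgeR adjusted p = 0.145) at ZT14 and 1.07 (adjusted p = 0.0639) averaged. None of the hepatocyte markers was at 0 in any library, and their summed level was 70078 to 91001 CPM.

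RefSeq promoter windows on GRCm38.p6, running from 250 bases before to 50 bases after a gene's start, were found for 6 of the 10 members, with 7 entries in all since Slc10a1 has 2. Those of Cyp7a1, Cyp7b1, Baat and Slc27a5 had no entry. The windows were searched on both strands for the D-box forms TTATGTAA, TTATGCAA and TTACGTAA, which E4BP4 and the Dbp family recognise, and for the E-box CACGTG, which the clock activators Clock and Bmal1 recognise. These motifs do not overlap in the windows that hold one. Akr1d1 and 1 of the Slc10a1 entries held TTATGCAA, and Nr0b2 held CACGTG; the windows of Cyp8b1, Cyp27a1 and Hsd3b7 held none of these. Of all 32851 promoter windows, 0.743% held TTATGCAA, 1.78% held any of the 3 D-box forms and 7.15% held CACGTG. The 3 windows with a motif are shown because E4BP4 is the transgene's product and both D-box members are described with their values below. Capitals mark the motif, in Slc10a1 read on the opposite strand as TTGCATAA. A match describes letters in the window, and is neither a measured binding site nor a cause. The base just before the start is position -1.
Akr1d1, chr6:37529923-37530222, plus strand, motif from position -8: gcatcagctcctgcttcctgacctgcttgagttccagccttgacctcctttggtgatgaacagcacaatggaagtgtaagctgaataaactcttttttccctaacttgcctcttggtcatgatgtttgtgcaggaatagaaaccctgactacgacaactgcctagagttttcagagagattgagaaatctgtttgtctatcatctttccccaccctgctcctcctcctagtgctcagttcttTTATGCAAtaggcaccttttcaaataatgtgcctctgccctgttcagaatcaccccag
Slc10a1, chr12:80968030-80968329, minus strand, motif from position -4: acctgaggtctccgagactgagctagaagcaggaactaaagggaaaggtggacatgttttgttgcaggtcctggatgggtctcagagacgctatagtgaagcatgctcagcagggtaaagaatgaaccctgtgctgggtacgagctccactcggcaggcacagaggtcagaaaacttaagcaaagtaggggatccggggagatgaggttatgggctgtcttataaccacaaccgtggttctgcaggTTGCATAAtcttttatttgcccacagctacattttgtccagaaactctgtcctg
Nr0b2, chr4:133553126-133553425, plus strand, motif from position -195: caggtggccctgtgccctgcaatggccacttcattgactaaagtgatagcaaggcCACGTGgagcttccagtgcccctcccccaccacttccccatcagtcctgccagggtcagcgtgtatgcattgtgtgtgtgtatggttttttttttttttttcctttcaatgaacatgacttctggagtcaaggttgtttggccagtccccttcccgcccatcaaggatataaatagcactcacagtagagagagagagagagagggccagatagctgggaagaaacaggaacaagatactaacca

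The first comparison asked how the members differed between the light and the dark phase. Counts of total gene reads were fitted for all 15244 genes tested, and a gene was called when edgeR's quasi-likelihood test gave a Benjamini-Hochberg adjusted p below 0.05. From ZT2 to ZT14 in WT, 2 of the 10 members were called higher and 1 lower, while 9.17% of all genes tested were called in either direction, 4.85% higher and 4.32% lower. In TG, 1 member was called higher and 2 lower, while 12.2% of all genes were called, 6.70% higher and 5.52% lower. The members' median log2 fold change was -0.004 in WT and 0.01 in TG, and that of all genes was 0.01 in both.

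**Figure D1:**
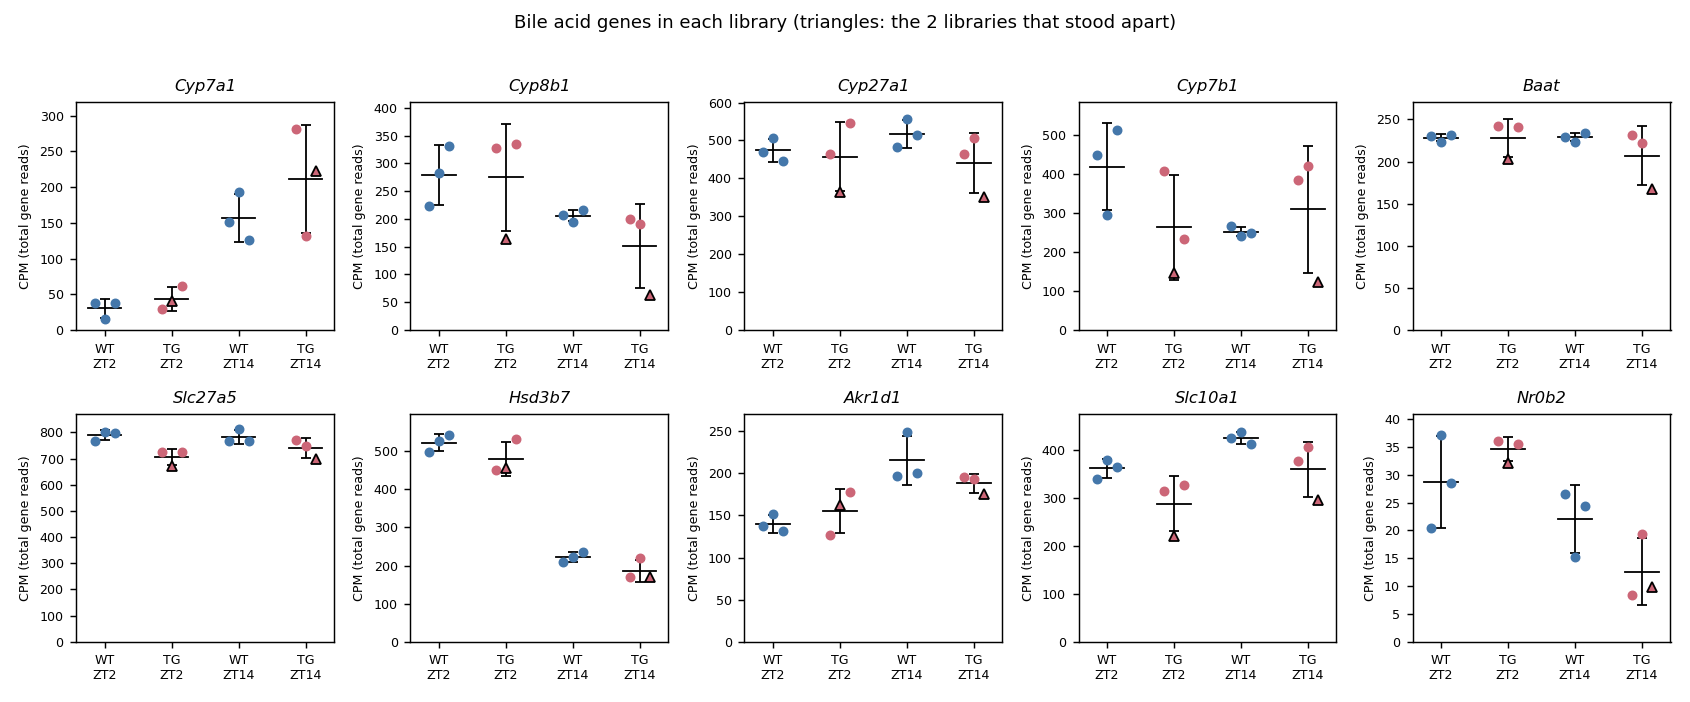
Normalised read count of the 10 bile acid genes in each library, in CPM of total gene reads (scaled by TMM), for WT (blue) and TG (red) at ZT2 and ZT14. Points are libraries, triangles are the 2 outlying libraries (TG ZT2 replicate 2 and TG ZT14 replicate 3), and bars give the mean ± SD of 3. Cyp7a1 is higher and Hsd3b7 lower in every ZT14 library than in every ZT2 library of either genotype.

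Cyp7a1, which sets the rate of the main route (ENSMUSG00000028240, chromosome 4, 6265612 to 6275633 on the minus strand of GRCm38, as in the deposited tables), stood at 37.3, 15.2 and 38.1 CPM in the WT libraries at ZT2 and at 151.7, 192.6 and 125.3 CPM at ZT14. In TG it stood at 28.6, 40.5 and 61.3 CPM at ZT2 and at 281.1, 131.1 and 223.2 CPM at ZT14. No ZT14 library reached down to the ZT2 libraries of its genotype. The rise was 2.37 on the log2 scale in WT (SE 0.38, edgeR adjusted p = 0.0019) and 2.28 in TG (SE 0.37, adjusted p = 0.00212, 4.87-fold). The change in TG less the change in WT was -0.08 (95% interval -1.19 to 1.02, edgeR adjusted p = 0.991), an interval wide enough to hold a 2-fold change either way. Both calls held in each of the 12 fits that leave out 1 library, with adjusted p-values up to 0.00746 in WT and 0.0119 in TG.

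Hsd3b7, the 3 beta-hydroxy-C27-steroid oxidoreductase that follows the 7 alpha-hydroxylases in both routes (ENSMUSG00000042289, chromosome 7, 127800604 to 127803802, plus strand), moved the other way. It stood at 498.1, 526.0 and 542.7 CPM in WT at ZT2 and at 208.7, 221.6 and 236.1 CPM at ZT14. In TG it stood at 452.1, 455.8 and 532.2 CPM at ZT2 and at 171.1, 219.5 and 168.8 CPM at ZT14. The times did not overlap in either genotype. The log2 fold change was -1.23 in WT (SE 0.11, edgeR adjusted p = 4.48e-05) and -1.36 in TG (SE 0.11, adjusted p = 2.1e-05), a fall of 2.35-fold and 2.57-fold. Only 5.41% to 7.48% of the reads given to Hsd3b7 were uniquely mapped, against 97.8% or more in each of the other members. The gene lies inside the annotated transcript RP23-325D10.3 on the same strand (127785608 to 127803802), which also spans most of Setd1a, and overlaps 9430064I24Rik on the opposite strand. How the counting shared reads among them is not given in the sources used here, so its level is uncertain. On uniquely mapped reads alone, 249 to 600 per library, the change was -0.99 in WT (SE 0.14, edgeR adjusted p = 0.000829) and -1.02 in TG (SE 0.14, adjusted p = 0.000618), where 4.80% and 6.39% of all genes so tested were called lower.

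Akr1d1, the 5 beta-reductase that gives bile acids their bent ring (ENSMUSG00000038641, chromosome 6, 37530173 to 37568815, plus strand), has the D-box letters shown above in its promoter window. Its WT libraries stood at 137.3, 152.0 and 131.0 CPM at ZT2 and at 196.8, 249.0 and 199.9 CPM at ZT14, with no overlap. Its TG libraries stood at 126.4, 162.8 and 177.3 CPM at ZT2 and at 195.8, 193.1 and 174.9 CPM at ZT14, where the lowest ZT14 library lay below the highest ZT2 library. The rise in WT was 0.62 (SE 0.13, edgeR adjusted p = 0.01). In TG the change was 0.27 (SE 0.13, adjusted p = 0.202). The difference between these changes was -0.35 (95% interval -0.74 to 0.05, edgeR adjusted p = 0.859), so the genotypes were not shown to differ in it. Counted on exon reads alone, the WT change was 0.41 (edgeR adjusted p = 0.0573) and was no longer called.

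Nr0b2, the repressor of Cyp7a1 and Cyp8b1 (ENSMUSG00000037583, chromosome 4, 133553376 to 133556536, plus strand), was a low-abundance member with 186 to 666 reads per library. It stood at 20.5, 37.1 and 28.6 CPM in WT at ZT2 and at 26.6, 15.2 and 24.4 CPM at ZT14, and these ranges overlapped. In TG it stood at 36.1, 32.2 and 35.6 CPM at ZT2 and at 8.33, 19.4 and 9.86 CPM at ZT14, without overlap. The change was -0.38 in WT (SE 0.30, edgeR adjusted p = 0.502) and -1.46 in TG (SE 0.30, adjusted p = 0.00836), a 2.76-fold fall in TG. Without the 2 outlying libraries the TG change was -1.38 and its edgeR adjusted p was 0.05003, just past the threshold. The difference between the changes was -1.09 (SE 0.42, 95% interval -2.00 to -0.17) with an unadjusted p of 0.0236 and an edgeR adjusted p of 0.774 over all genes.

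The other 6 members were not called between the times in either genotype. Cyp8b1, the 12 alpha-hydroxylase (chromosome 9, 121914356 to 121916305, minus strand), stood at 223.7, 282.1 and 330.7 CPM at ZT2 and 206.9, 195.0 and 216.2 CPM at ZT14 in WT, and at 327.0, 164.2 and 334.8 CPM against 199.3, 190.9 and 63.1 CPM in TG. Its change was -0.44 in WT (SE 0.36, edgeR adjusted p = 0.524) and -0.87 in TG (SE 0.36, adjusted p = 0.144). Without the 2 outlying libraries it was called lower at ZT14 in both genotypes, at -0.45 in WT (edgeR adjusted p = 0.0412) and -0.78 in TG (adjusted p = 0.0114), where 10.3% and 7.47% of all genes were called. The WT libraries are the same in that fit, and their change kept its size while its SE went from 0.36 to 0.12. The 2 TG libraries left out were set apart on these same data and were the lowest of their time for Cyp8b1. None of the 12 fits that leave out 1 library called Cyp8b1 in either genotype, and its TG change ran from -1.15 to -0.50 in them. Slc10a1, the uptake carrier, had a change of 0.23 in WT (SE 0.15, edgeR adjusted p = 0.386) and 0.32 in TG (SE 0.15, adjusted p = 0.184), and its WT times did not overlap. Cyp27a1 (chromosome 1, 74713574 to 74737892, plus strand), which opens the alternative route, ranged from 351.2 to 557.0 CPM over the 12 libraries. The conjugating enzymes ranged from 670.5 to 813.8 CPM for Slc27a5 (chromosome 7, 12988346 to 12998192, minus strand) and from 167.5 to 241.9 CPM for Baat (chromosome 4, 49489422 to 49506557, minus strand). The groups of these 3 genes overlapped between the times in both genotypes. Cyp27a1, Slc27a5 and Baat had fitted changes between -0.14 (Baat in TG) and 0.13 (Cyp27a1 in WT), and the 95% intervals of Slc27a5, the narrowest of the members, ran from -0.19 to 0.17 in WT and from -0.11 to 0.25 in TG.

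Cyp7b1, the 7 alpha-hydroxylase of the alternative route (chromosome 3, 18071950 to 18243338, minus strand), was the member with the largest standard error. It stood at 450.5, 294.7 and 513.1 CPM in WT at ZT2 and at 266.6, 242.3 and 249.4 CPM at ZT14. In TG it stood at 409.6, 146.8 and 233.4 CPM at ZT2 and at 385.2, 420.2 and 123.2 CPM at ZT14. The WT times did not overlap, while the TG times did. Its change was -0.73 in WT (SE 0.41, edgeR adjusted p = 0.325) and 0.23 in TG (SE 0.41, adjusted p = 0.771). Fitted on the 2 WT groups alone it was called, at -0.74 (edgeR adjusted p = 0.0371). Counting members whose 3 ZT14 libraries all lay on the same side of the 3 ZT2 libraries gave 3 higher (Cyp7a1, Akr1d1 and Slc10a1) and 3 lower (Cyp8b1, Cyp7b1 and Hsd3b7) in WT, where 29.3% of all genes tested were so separated. In TG it gave 1 higher (Cyp7a1) and 2 lower (Hsd3b7 and Nr0b2), where the share of all genes was 30.0%.

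**Figure D2:**
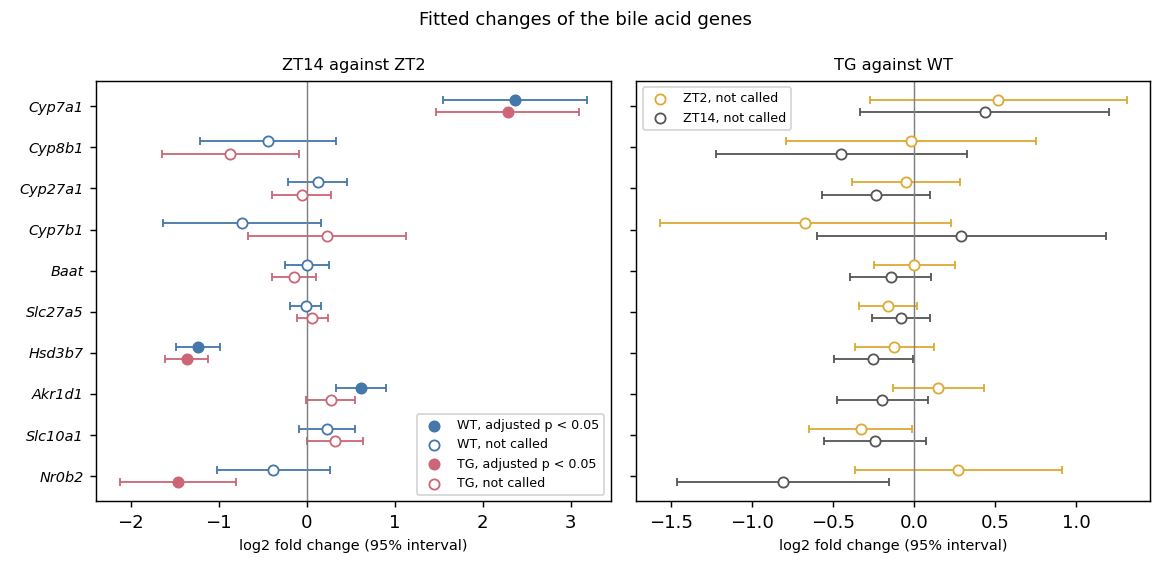
Fitted log2 fold change of each bile acid gene with its 95% interval, between the times within each genotype (left) and between the genotypes at each time (right). Filled points passed an edgeR adjusted p of 0.05 and open points did not; the 6 filled points are all between the times, for Cyp7a1, Hsd3b7, Akr1d1 and Nr0b2.

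Levels were compared between members on the deposited TPM values, which are scaled by length. In WT at ZT2, Slc27a5 stood highest at 720.9 ± 41.2 TPM (SD, n = 3). Cyp27a1 (462.4 ± 38.8), Slc10a1 (460.9 ± 36.9), Hsd3b7 (422.0 ± 30.9), Cyp7b1 (343.7 ± 71.9) and Cyp8b1 (322.4 ± 70.8) followed, and each overlapped the next in this order, with the level of Hsd3b7 uncertain because of its shared reads. Baat (233.0 ± 6.67) lay below them. Akr1d1 (90.62 ± 11.03), Nr0b2 (54.6 ± 18.0) and Cyp7a1 (15.3 ± 6.45) were lowest, and their ranges were apart. At ZT14 in WT, Cyp7a1 at 86.8 ± 22.1 TPM stood above Nr0b2 at 42.6 ± 10.1 TPM without overlap, and Hsd3b7, with the same limit, at 188.6 ± 14.6 TPM lay below Baat at 237.4 ± 7.12 TPM. Slc10a1 (584.5 ± 35.0) and Cyp27a1 (508.0 ± 50.1) still overlapped, as did Cyp8b1 (250.8 ± 7.03) and Cyp7b1 (250.3 ± 25.7).

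The study's main question, as far as its labels give it, is what E4BP4 overexpression changes at each time. Among the members edgeR called none between TG and WT at ZT2, where 0.0722% of all genes tested were called, and none at ZT14, where the share was 0.0853%. Averaged over both times it also called none, with 0.144% of all genes called, and none in the test of whether the time difference depended on genotype, with 0.00656% called. At an unadjusted p below 0.05, edgeR gave 1 member at ZT2 (Slc10a1), 2 at ZT14 (Hsd3b7 and Nr0b2), 2 averaged over the times (Hsd3b7 and Slc10a1) and 1 for the dependence on genotype (Nr0b2). The shares of all genes below that p were 7.56%, 6.91%, 8.82% and 5.98%. DESeq2 and limma-voom called 0 members in these 4 comparisons as well. The members' median log2 fold change in TG was -0.03 at ZT2 and -0.21 at ZT14, against 0.00 and 0.01 for all genes.

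Slc10a1 (ENSMUSG00000021135, chromosome 12, 80953185 to 80968079, minus strand) was lower in all 3 TG libraries than in all 3 WT libraries at both times, but was called at neither. Its promoter entry with the D-box letters is at the deposited gene start, and its other entry holds none of the motifs. Whether E4BP4 binds there or acts on Slc10a1 was not tested. At ZT2 the WT libraries stood at 340.6, 380.4 and 365.4 CPM and the TG libraries at 315.7, 221.8 and 326.6 CPM. At ZT14 the WT libraries stood at 425.0, 437.8 and 412.2 CPM and the TG libraries at 378.2, 405.9 and 295.2 CPM. The averaged difference was -0.29 (SE 0.10, 95% interval -0.51 to -0.06, edgeR adjusted p = 0.48). The lowest TG value at each time came from an outlying library, and without these 2 libraries the averaged difference was -0.15 (SE 0.06, edgeR adjusted p = 0.727). Slc27a5 was also without overlap at ZT2, at 724.9, 670.5 and 724.2 CPM in TG against 767.7, 802.8 and 795.8 CPM in WT, and Akr1d1 was so at ZT14, where its highest TG library, at 195.8 CPM, lay just below its lowest WT library, at 196.8 CPM. No member was higher without overlap in TG. Of all genes tested, 12.1% were separated in this way at ZT2 and 12.4% at ZT14.

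Cyp7a1 had a TG difference of 0.52 at ZT2 (95% interval -0.27 to 1.32) and 0.44 at ZT14 (-0.33 to 1.20), and 0.48 averaged over the times (-0.07 to 1.03, edgeR adjusted p = 0.611). These intervals hold both no change and a 2-fold rise. Leaving out 1 library moved the Cyp7a1 difference between 0.19 and 0.74 at ZT2 and between 0.18 and 0.69 at ZT14. Nr0b2 had a difference of 0.27 at ZT2 (SE 0.29, edgeR adjusted p = 0.872) and -0.81 at ZT14 (SE 0.30, adjusted p = 0.638), which moved between 0.076 and 0.50 and between -1.27 and -0.59 when 1 library was left out. Hsd3b7 had a difference of -0.12 at ZT2 and -0.25 at ZT14, and -0.19 averaged (SE 0.08, edgeR adjusted p = 0.525). Baat, the amino acid transferase, had 95% intervals from -0.25 to 0.25 at ZT2 and from -0.39 to 0.10 at ZT14, so that a difference above 1.5-fold lay outside both.

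In the 2 outlying libraries several members were low. TG ZT2 replicate 2 was the lowest of the 6 ZT2 libraries for 6 of the 10 members (Cyp8b1, Cyp27a1, Cyp7b1, Baat, Slc27a5 and Slc10a1). TG ZT14 replicate 3 was the lowest of the 6 ZT14 libraries for 8 of the 10, namely these 6 with Hsd3b7 and Akr1d1. The share of all genes lowest in these libraries was not counted, and the libraries were set apart on these same data. Relative to the mean of WT at their own time, Cyp7b1 stood at -1.48 and -1.04 log2 CPM in them, Cyp8b1 at -0.75 and -1.71, and Slc10a1 at -0.71 and -0.53. Cyp7a1 was not low there, with 40.5 CPM at ZT2 and 223.2 CPM at ZT14, within the range of the other TG libraries. Without these libraries the averaged TG difference turned from -0.23 to 0.08 for Cyp8b1, from -0.19 to 0.14 for Cyp7b1 and from -0.07 to 0.03 for Baat; edgeR called none of these with or without them.

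Averages over other marker lists moved in the same libraries. The 10 pericentral hepatocyte markers averaged -0.61 and -0.65 log2 CPM relative to that mean, with summed levels of 4549 and 5379 CPM where the other 10 libraries lay between 6484 and 7851 CPM. The 10 periportal markers averaged 0.77 and 0.82, the 8 tested of 15 female-biased liver genes 2.26 and 1.56, and the 15 male-biased genes -0.62 and -0.52. TG ZT2 replicate 3 was as low for the male-biased genes, at -0.65, and there Cyp7b1 stood at -0.81. The other members in that library stood between -0.15 (Slc10a1) and 1.14 (Cyp7a1), with Cyp8b1 at 0.28. Summed levels did not all follow these averages. The periportal sum overlapped between TG and WT at both times, with 4135 to 5801 against 3595 to 5890 CPM at ZT2. The male-biased sum at ZT14 did not fall with its average, at 22231 to 24663 CPM in TG and 20298 to 22363 CPM in WT. The female-biased sum was higher in every TG library than in every WT library of its time, not only in the 2 outlying libraries. At ZT2 it was 15.06 to 60.8 CPM in TG and 11.07 to 13.04 CPM in WT. At ZT14 it was 45.7 to 90.01 and 32.05 to 42.02 CPM. Up to 7 of the 15 female-biased genes were at 0 in a library. No marker of the pericentral, periportal, hepatocyte or male-biased lists was at 0 in any library. In bulk liver, fewer cells of a type and less RNA per cell cannot be told apart, and the part of zonation or sex-biased expression in the members' values was not tested.

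**Figure D3:**
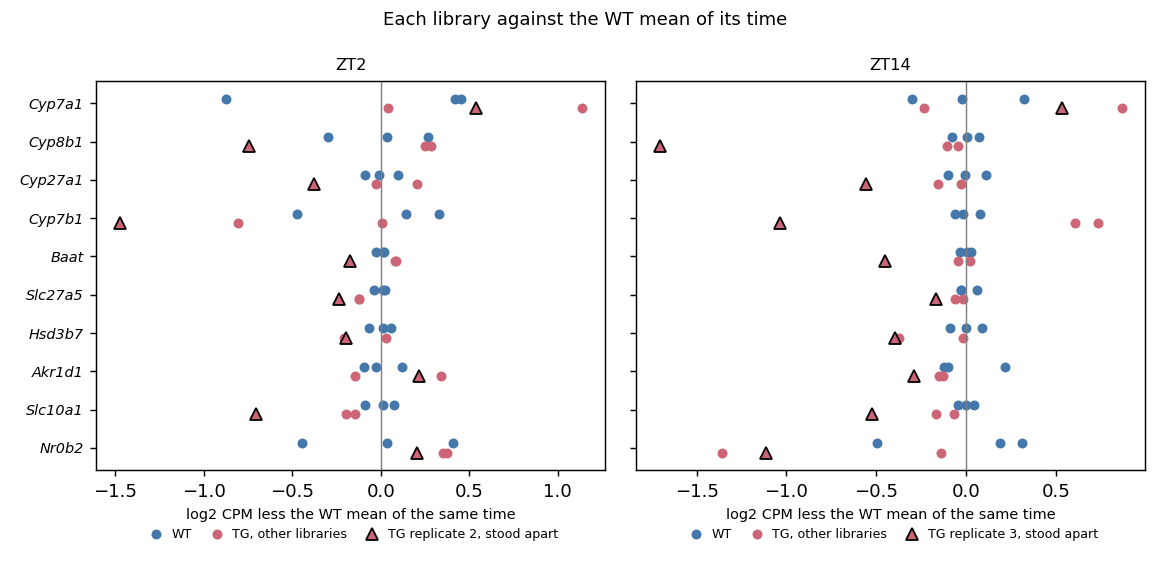
Log2 CPM of each bile acid gene in each library, less the mean of WT at that time, at ZT2 (left) and ZT14 (right). Blue points are WT, red points TG, and triangles the 2 outlying libraries, which are the lowest of their time for 6 and 8 of the 10 genes. The share of all genes lowest in them was not counted.

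Non-parenchymal markers were looked at in the same way. The 10 stellate cell and fibroblast markers summed to 284.1 to 347.7 CPM in TG and 199.2 to 274.6 CPM in WT at ZT2, without overlap, and to 235.7 to 320.0 and 220.6 to 259.3 CPM at ZT14. The 10 cholangiocyte markers summed to 118.7 to 156.0 CPM in TG and 73.2 to 137.4 CPM in WT at ZT2. None of these markers was called between the genotypes by edgeR. At ZT2, 5 stellate and 4 cholangiocyte markers had an unadjusted edgeR p below 0.05, where 7.56% of all genes tested did. At that time Slc10a1 and Slc27a5 were the members lower in TG without overlap. The part of cell make-up in this was not tested. The Kupffer cell and endothelial lists overlapped between the genotypes at both times, at 380.9 to 532.0 and 417.8 to 479.6 CPM over all libraries.

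Reads in introns come partly from RNA not yet spliced, and they were fitted apart from exon reads. Cyp8b1 is annotated as a single exon and had no intron reads. Cyp7a1 had few intron reads, 2.02% to 6.81% of its reads, yet they too were called higher at ZT14 in TG, at 2.57 (SE 0.46, edgeR adjusted p = 0.00687); in WT the change was 1.37 (SE 0.45, adjusted p = 0.147). Akr1d1 intron reads were called higher at ZT14 in WT, at 1.29 (SE 0.24, edgeR adjusted p = 0.0107), and in TG the change was 0.77 (SE 0.23, adjusted p = 0.0687). Of all genes tested on intron reads, 1.24% were called higher in WT and 3.06% in TG. The intron share of Akr1d1 was 13.36%, 14.99% and 22.1% in WT at ZT2 and 27.6%, 28.9% and 27.0% at ZT14, with no overlap. In TG it was 14.3%, 25.2% and 21.6% at ZT2 and 29.3%, 27.5% and 32.5% at ZT14. How many of all genes separated the times in intron share was not counted. Hsd3b7, whose exon reads fell, had 24 to 74 intron reads per library, with a change of -0.08 in WT (SE 0.29, edgeR adjusted p = 0.936). In TG the change was -0.52 (SE 0.30, adjusted p = 0.348).

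Intron reads of Baat and Cyp7b1 went apart from their exon reads in single groups or libraries. Baat had an intron share of 22.0%, 21.4% and 21.6% in TG at ZT14, above the 14.96%, 14.73% and 16.1% of WT at that time, with no overlap. Its intron reads differed by 0.35 between TG and WT at ZT14 (SE 0.21, edgeR adjusted p = 0.992) while its total gene reads differed by -0.14. How many of all genes separated the genotypes in intron share was not counted. Cyp7b1, a gene of 171389 bases, had an intron share of 32.4%, 3.59% and 21.3% in the WT libraries at ZT2, 20.4% in WT ZT14 replicate 2 and 13.1% in TG ZT14 replicate 2. In the other 7 libraries the share was 3.94% to 10.03%. WT ZT2 replicate 1 held 3098 Cyp7b1 intron reads and replicate 2 held 167. Exon reads alone gave a Cyp7b1 time change in WT of -0.53 (SE 0.41, edgeR adjusted p = 0.469), against -0.73 on total reads. The annotated gene Gm23686 lies within Cyp7b1, and Gm7463 within Akr1d1; reads from overlapping genes cannot be told apart where counting does not use strand, which is not given in the sources used here.

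**Figure D4:**
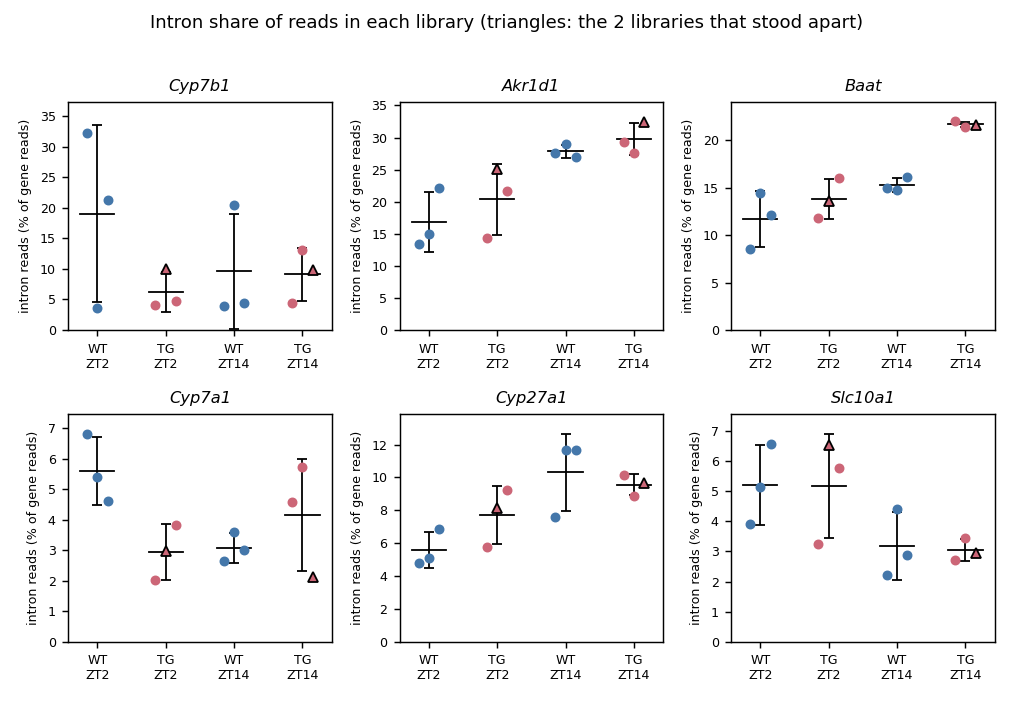
Share of a gene's reads that lie in introns, in percent, in each library for 6 bile acid genes, by genotype and time. Points are libraries, triangles the 2 outlying ones, and bars the mean ± SD of 3; the 3 TG ZT14 libraries of Baat lie at 21.4% to 22.0%, and Cyp7b1 ranges from 3.59% to 32.4% within WT at ZT2.

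The rest of the pathway was read from lists of other synthesis enzymes, transporters and regulators. Of 17 other synthesis enzymes tested, 1 rose and 1 fell from ZT2 to ZT14 in WT, and 3 fell in TG, while 9.17% and 12.2% of all genes tested were called at all. Amacr, a racemase of side-chain shortening, fell in both, by 0.40 on the log2 scale in WT (SE 0.07, edgeR adjusted p = 0.00474) and by 0.43 in TG (SE 0.07, adjusted p = 0.0029). Acox2, the oxidase of the same step, was called in TG at -0.55 (edgeR adjusted p = 0.00933), and without the 2 outlying libraries stood at -0.53 and was not called (adjusted p = 0.0584). Stard5 in WT at 0.51 (edgeR adjusted p = 0.023) and Akr1c6 in TG at -0.42 (adjusted p = 0.0328) kept their calls in 7 and 6 of the 12 fits that leave out 1 library. The list's median change was -0.03 in WT and 0.00 in TG.

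Of 15 transporters tested, 1 fell in each genotype, where 4.32% of all genes fell in WT and 5.52% in TG. It was Abcb11, the bile salt export pump that secretes bile acids into the canaliculus. It went from 690.8 ± 83.9 to 319.4 ± 49.4 CPM in WT (SD, n = 3), a change of -1.11 (SE 0.12, edgeR adjusted p = 0.000156), and from 626.7 ± 13.7 to 262.8 ± 6.19 CPM in TG, a change of -1.25 (SE 0.12, adjusted p = 6.09e-05). The fall of Abcb11 at ZT14 thus stood beside the rise of Cyp7a1 in each genotype. The list's median change was -0.03 in WT and -0.11 in TG.

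Of 24 regulators tested, 5 rose and 4 fell in WT, and 5 rose and 5 fell in TG, beside the 9.17% and 12.2% of all genes called in either direction. Nr1h4 (FXR), which activates Nr0b2 and Abcb11, rose from 121.3 ± 12.9 to 200.6 ± 19.1 CPM in WT (0.73, SE 0.15, edgeR adjusted p = 0.00875) and from 119.5 ± 22.9 to 196.7 ± 27.8 CPM in TG (0.72, SE 0.15, adjusted p = 0.00799). Insig2, which retains the sterol sensor complex in the endoplasmic reticulum, fell by 1.67 in WT and 1.83 in TG on the log2 scale (edgeR adjusted p = 0.00026 and 0.000124). Fgfr4 and Klb, the receptor and co-receptor by which intestinal Fgf15 lowers Cyp7a1, were not called, at 49.96 ± 10.03 and 24.1 ± 5.76 CPM in WT at ZT2 and 41.4 ± 4.27 and 21.2 ± 1.45 CPM at ZT14. The activators that share the D-box with E4BP4 rose in both genotypes: Dbp by 2.39 in WT and 4.12 in TG, Tef by 1.73 and 2.06, and Hlf by 1.07 and 1.02, with edgeR adjusted p-values up to 0.00698. EdgeR called none of the synthesis enzymes, transporters or regulators between TG and WT at either time. At an unadjusted p below 0.05 it gave 2, 5 and 2 of them at ZT2 and 2, 3 and 4 at ZT14. Of all genes tested, 7.56% lay below that p at ZT2 and 6.91% at ZT14. The bile acid uptake carrier Slco1a4, named after its values were seen, had TG libraries at 60.2 to 72.3 CPM against 12.6 to 40.4 CPM in WT at ZT2, and at 59.3 to 90.7 CPM against 25.1 to 41.5 CPM at ZT14. The groups did not overlap at either time. Its averaged difference was 1.24 (SE 0.23, edgeR adjusted p = 0.0624), and 1.11 (adjusted p = 0.312) without the 2 outlying libraries. DESeq2 (adjusted p = 0.00319) and limma-voom (adjusted p = 0.0487) called it averaged over the times. So did edgeR with no filter on low counts (adjusted p = 0.000187) and without WT ZT2 replicate 2 or replicate 3 (adjusted p = 0.0181 and 0.0252). The other fits that leave out 1 library did not call it, with edgeR adjusted p-values up to 0.223. Slc22a7 of the same list, also named after its values were seen, went the other way without overlap. Its TG libraries stood at 10.7 to 31.3 CPM against 37.3 to 66.7 CPM in WT at ZT2. At ZT14 they stood at 9.18 to 28.5 against 35.2 to 49.1 CPM. Its averaged difference was -1.04 (SE 0.29, edgeR adjusted p = 0.382).

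For Cyp7a1, Cyp8b1 and Cyp7b1, the genes with the nearest course over the 12 libraries were found by the root mean square (RMS) difference of centred log2 CPM. Nearest to Cyp7a1 were Fmo2 (RMS 0.50), Per2 (0.52) and Aacs (0.56), of which Per2 is a clock repressor and Fmo2 also a member of the female-biased list. Nearest to Cyp8b1 were Mup8 (0.23), Mup2 (0.25) and Sdr9c7 (0.29), and nearest to Cyp7b1 were Selenbp2 (0.20), Wipi1 (0.32) and Mup5 (0.33). The major urinary protein (Mup) genes are near-identical copies, so reads may be split among them. These libraries share their group, time and depth, and the likeness is a description only.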

How the data were processed

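The deposited counts (total gene, uniquely mapped, exon and intron reads) and TPM values are given per gene and library for 48440 genes, per the file headers. The submitters' processing notes name GRCm38 and mm10. Neither the aligner nor the use of strand was given in those sources. Of the 10 members, 9 have the same coordinates in GENCODE M21. Libraries were made from polyadenylated RNA, per the labels' protocols. Total gene reads, 16035121 to 23981021 per library, were kept by filterByExpr (minimum count 10, minimum total 15; 15244 genes), scaled by TMM and fitted in 1 quasi-likelihood model over the 4 groups (edgeR 4.0.16, R 4.3.3), checked on simulated counts. Standard errors come from the test statistic, and intervals are 95%. Alternatives were other scalings and filters, DESeq2 1.42.0, limma-voom (limma 3.58.1), other read classes and libraries left out. TPM values, as the authors deposited them, were only described.

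All 10 members were described. Of the other lists, up to 4 called genes a list and contrast were named by smallest p, with Nfil3, Dbp, Tef, Hlf, Nr1h4, Fgfr4, Klb and Abcb11; some named by this rule are not reported here. Members and lists were chosen with earlier results of these data known.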

Additional observations from a re-analysis of the deposited data

How the results depend on the processing

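Of 10 members, 3 were called between the times in WT and 3 in TG. Leaving out each library in turn kept both counts at 3, and the other settings kept them between 2 and 4, except intron reads, which gave 1 in WT and 1 in TG. The number of members called between the genotypes was 0 in every alternative run. The cause of these changes was not tested. Depth limits the intron values, with as few as 4 intron reads in a library for Nr0b2, 10 for Cyp7a1 and 24 for Hsd3b7.

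The replicate numbers shared by the groups showed no clear pairing: 2 of 18 same-numbered pairs correlated above 0.1, and 16 of 36 comparisons were best with their own number. This check cannot exclude a pairing, since the 2 outlying libraries carry different numbers. With the replicate block, 3 members were called between the times in WT and 3 in TG, and none between genotypes. The block gave Nfil3 at ZT14 1.35 (adjusted p = 0.0726) and Akr1c6 in TG -0.42 (adjusted p = 0.0568).

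Log2 fold changes whose sign turned were those of uncalled members, apart from Nfil3. For Baat between the times in WT the value was -0.0003 with RLE factors, -0.0004 with DESeq2, -0.0065 with the 1 CPM filter, -0.0035 on unique reads, -0.055 on exon reads, -0.0062 with the 2 groups alone and -0.0054 without the 2 outlying libraries. Baat in TG against WT at ZT2 was -0.0023 with limma-voom and -0.020 on exon reads. Library size alone gave Cyp8b1 0.01 at ZT2, Akr1d1 0.0057 averaged and Slc27a5 0.046 between the times in WT, and Slc27a5 there was 0.0005 without a filter. Without the 2 outlying libraries, TG against WT was 0.25 for Cyp8b1 and 0.094 for Cyp27a1 at ZT2, and 0.084 for Cyp8b1, 0.14 for Cyp7b1 and 0.034 for Baat averaged over the times. On intron reads, TG against WT at ZT2 was -0.41 for Cyp7a1, 0.39 for Cyp27a1, 0.37 for Slc27a5 and 0.11 for Hsd3b7. At ZT14 it was 0.35 for Baat and -0.44 for Nfil3, and averaged it was 0.017 for Cyp27a1, 0.28 for Baat, 0.16 for Akr1d1, 0.17 for Nr0b2 and -0.066 for Nfil3. Intron reads between the times gave Slc27a5 0.85, Slc10a1 -0.56 and Nr0b2 0.13 in WT, and Cyp27a1 0.22, Baat 0.48 and Slc10a1 -0.41 in TG. Their difference between genotypes was 1.20 for Cyp7a1, 0.15 for Baat and -0.76 for Slc27a5.

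Leaving out 1 library gave ranges across 0 for 11 uncalled values. These were TG against WT at ZT2 for Cyp8b1 (-0.18 to 0.25), Cyp27a1 (-0.20 to 0.093) and Baat (-0.047 to 0.085), and averaged for Cyp7b1 (-0.43 to 0.0002) and Akr1d1 (-0.075 to 0.036). Between the times they were Baat (-0.0087 to 0.022) and Slc27a5 (-0.041 to 0.0036) in WT and Cyp27a1 (-0.21 to 0.090) and Cyp7b1 (-0.070 to 0.69) in TG. The genotype difference in time ranged from -0.34 to 0.25 for Cyp7a1 and from -0.073 to 0.21 for Slc10a1.

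Of the other lists, transporters called between the times in WT were 1, but 2 with DESeq2 or no filter, 3 with the 2 groups alone, 4 without the 2 outlying libraries and 0 on intron reads. Other synthesis enzymes in TG were 3, but 5 with DESeq2 or no filter. Regulators were 9 in WT and 10 in TG, but 2 and 6 on intron reads and 5 and 4 at an adjusted p below 0.01. Between the genotypes, averaged, transporters were 0 in edgeR but 1 with DESeq2 or limma-voom and 2 with no filter.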
